A study of Mus musculus with 6 samples.

Results

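The genes described here mark the cartilage and tendon lineages in fibroblasts sorted from mouse synovium, the lining tissue of joints. They are a fixed list of 10 symbols, chosen with earlier results of these data known: Sox9, Sox5, Sox6, Comp, Chad, Runx2, Scx, Tnmd, Mkx and Scrg1. All 10 were rows of the deposited table of raw counts, which holds 24348 genes, and all 10 passed the minimum of 10 counts in at least 3 libraries. Adult wild-type mice (C57BL/6 in the labels, a C57BL/6J background in the study's methods) received immune complexes (IC, here ovalbumin bound by rabbit antibody to it) or the control injection, called vehicle, into a vein. The knee synovium was then taken, treated with collagenase and sorted for fibroblasts, which gave 3 libraries of total RNA for each of the groups. The sources used here give neither the interval between injection and sorting, nor the antibodies that defined the fibroblast gate, nor whether 1 library is 1 mouse, so that the p-values measure only the spread between these libraries.

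Cartilage and tendon arise from related connective tissue progenitors. SOX9 switches on the cartilage programme, and SOX5 and SOX6, which resemble each other closely and carry no activation domain of their own, bind next to it on cartilage genes. SCX and MKX play that part in tendon, RUNX2 does so in bone and in maturing cartilage, and COMP, CHAD and TNMD are proteins that the mature tissues make. The synovium joins cartilage, ligament and tendon at its edges, and its fibroblasts express parts of these programmes.

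Total counts ranged from 40114331 to 56714304 per library. Values below are normalized counts, that is counts divided by the size factor of DESeq2, and fold changes are IC over vehicle. Vehicle replicate 1 stood apart from the other libraries. Gm42418, whose locus covers repeat sequence of ribosomal RNA, took 0.964% of its counts and 0.375% to 0.553% of those of the other 5 libraries. This library also held the lowest of the 6 values for 5 of the 10 lineage genes (Comp, Chad, Tnmd, Mkx and Scrg1), as it did for 17.8% of all tested genes. Over 13435 genes, chi-square per degree of freedom was 76.7 and 45.7 between vehicle replicate 1 and vehicle replicates 2 and 3, 24.9 between vehicle replicates 2 and 3, and at most 35.1 between IC libraries. Without it, DESeq2 called 677 genes in place of 419. Fibroblast markers (10 genes, among them Pdgfra, Pdpn, Thy1 and Col1a1) summed to 44785 to 55505 CPM (counts scaled to a common library total) in the 6 libraries. Macrophage markers (7 genes in the table, Csf1r and Cd68 among them) summed to 24.2 to 36.3 CPM, with C1qb, C1qc and Cx3cr1 at 0 in at least 1 library.

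Sox5 and Chad are shown here with the bases just before a transcription start listed by RefSeq, since Sox5 fell after IC and Chad held a motif close to its start. Tnmd is shown beside them as the other product of mature tissue in that table, and its printed stretch stops 28 bases short of the start, where its exon begins in GENCODE M21, while its whole window was searched. Of the 10 genes, 5 had a promoter in the RefSeq table of build GRCm38.p6, with 10 windows in all because Sox6 has several starts. The windows were searched on both strands for CAGATG, a sequence of the CANNTG class (E-box) bound by factors of the SCX type, for AACAAT, the core bound by SOX proteins, and for TATAAA, the TATA box. Capitals mark a match, and sequences run 5′ to 3′ on the strand of the gene.
Sox5, chr6:143947107-143947356, minus strand: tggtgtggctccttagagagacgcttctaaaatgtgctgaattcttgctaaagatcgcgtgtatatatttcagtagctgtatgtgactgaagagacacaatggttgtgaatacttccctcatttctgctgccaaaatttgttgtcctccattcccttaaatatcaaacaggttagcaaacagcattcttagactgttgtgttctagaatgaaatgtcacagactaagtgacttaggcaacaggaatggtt
Chad, chr11:94564797-94565046, plus strand: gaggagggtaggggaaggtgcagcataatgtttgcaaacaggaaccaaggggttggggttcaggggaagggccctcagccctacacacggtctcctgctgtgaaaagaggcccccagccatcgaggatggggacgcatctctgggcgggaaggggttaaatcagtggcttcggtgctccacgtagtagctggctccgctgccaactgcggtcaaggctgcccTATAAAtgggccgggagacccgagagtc
Tnmd, chrX:133850758-133850979, plus strand: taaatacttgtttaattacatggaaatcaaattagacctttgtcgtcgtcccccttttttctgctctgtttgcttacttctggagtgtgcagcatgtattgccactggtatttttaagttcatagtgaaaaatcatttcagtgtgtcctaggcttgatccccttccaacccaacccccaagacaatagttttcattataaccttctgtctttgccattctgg

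The Chad window held TATAAA 28 bases before its start, and 2 of the 10 windows held it, against 12.4% of all 32851 windows of 250 bases. The Sox5 and Tnmd windows held none of the 3 motifs. CAGATG was found in 2 and AACAAT in 1 of the 10 windows, all of Sox6, against 14.4% and 9.42% of all windows. The start shown for Sox5 lies inside the gene, which GENCODE M21 places at chr6:143828425-144781977. It lies 834871 bases from the start of the gene there, and no window at that gene start was searched.

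The comparison of IC with vehicle asked whether the lineage genes changed after a circulating immune challenge. Sox5 fell and Mkx rose, while Sox9, Sox6, Runx2, Scx, Comp, Chad, Tnmd and Scrg1 were not called. DESeq2 thus called 2 of the 9 genes that it gave an adjusted p, 1 in each direction, at an adjusted p under 0.05. Over all 16055 genes given an adjusted p, 2.61% were called, 1.28% higher and 1.33% lower. The quasi-likelihood test of edgeR called 0 of the 10 at an adjusted p under 0.05, against 0.186% of all genes, and put 3 of them (Sox5, Mkx and Comp) at an unadjusted p under 0.05, against 9.64% of all genes. DESeq2 put 2 of the 10 (Sox5 and Mkx) there, against 9.8% of all genes. The median log2 fold change of the 10 was 0.13, and that of all tested genes −0.0019. In bulk RNA, fewer cells of a type and less RNA per cell cannot be told apart.

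**Figure D1:**
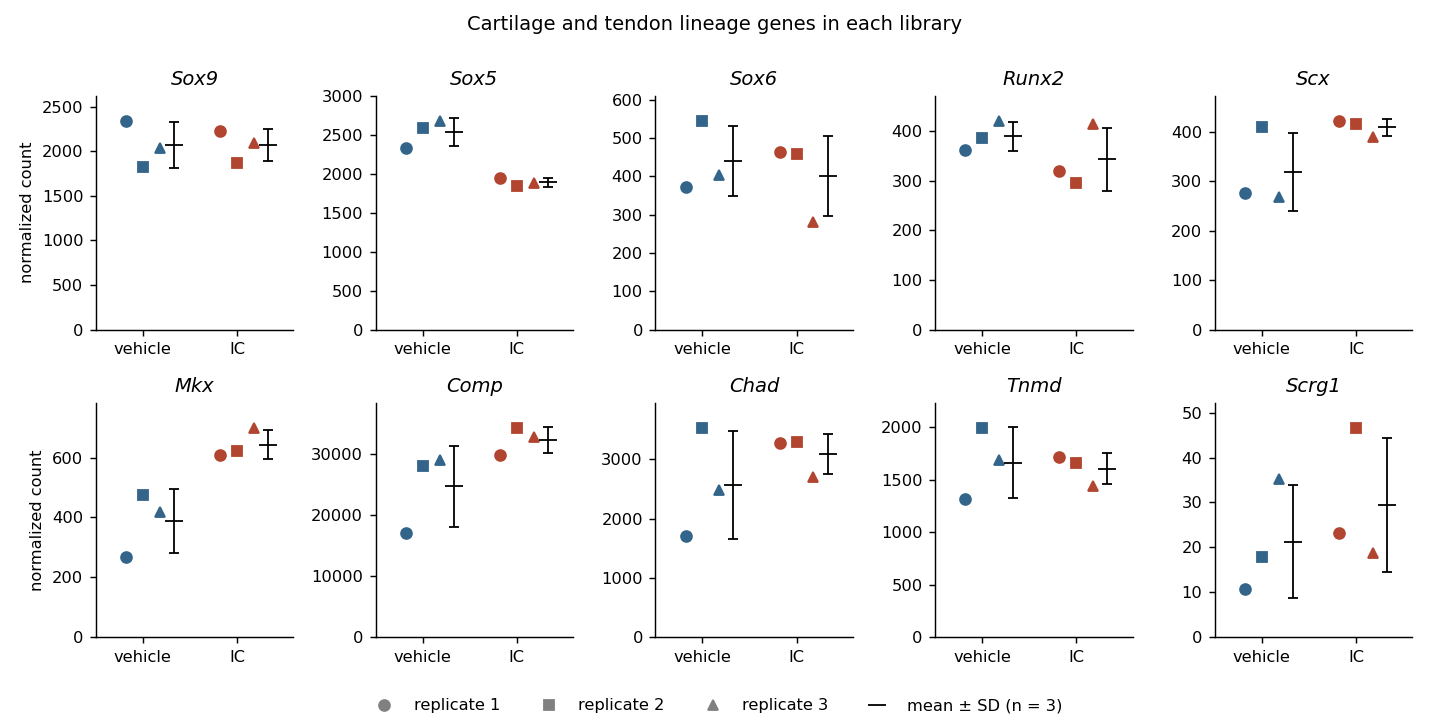
Normalized counts (vertical axes, from 0) of the 10 lineage genes in the 3 vehicle (blue) and 3 IC (red) libraries. Symbols stand for replicates and black bars for the mean ± SD. The groups do not overlap for Sox5, Mkx and Comp, and the circle of vehicle replicate 1 is the lowest point for Mkx, Comp, Chad, Tnmd and Scrg1.

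Sox9 encodes the transcription factor that commits cells to the cartilage lineage. It had 2227, 1873 and 2092 normalized counts in IC replicates 1, 2 and 3, and 2342, 1828 and 2031 in vehicle replicates 1, 2 and 3. The groups covered the same range, and the highest and the lowest of the 6 libraries were both vehicle. The log2 fold change was −0.0024 with a standard error of 0.122, and its 95% interval of −0.24 to 0.24 bounds a change of Sox9 in either direction.

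Sox5 encodes a partner of SOX9 on cartilage genes. It had 1954, 1841 and 1877 normalized counts after IC, and 2333, 2593 and 2683 after vehicle. Every IC library lay below every vehicle library, and the IC values lay closer together than the vehicle values. Means were 1891 ± 57.6 and 2536 ± 182 (SD, n = 3 each), and the log2 fold change was −0.42 ± 0.102 (SE), or 0.746-fold, with adjusted p values of 0.00301 (DESeq2) and 0.0795 (edgeR). The call held in all 6 fits that each left out 1 library, with adjusted p from 0.000129 to 0.0395. It also held in all 8 other settings of DESeq2 with 6 libraries, some of which left the unadjusted p of Sox5 unchanged. Sox5 was not called by limma-voom (adjusted p 0.0708) or by edgeR with a replicate block (0.197).

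Relative to Sox9 in the same library, Sox5 stood at 0.877 to 0.983 after IC and at 0.996 to 1.42 after vehicle. The lowest vehicle ratio, that of replicate 1, was thus close to the highest IC ratio. An antisense gene, Sox5os1, shares 9.25% of the exon bases of Sox5 and was not analysed here, and since the use of strand in counting is not stated, reads of the 2 genes cannot be told apart there.

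Summed markers of several other cell types were lower in most IC libraries, as Sox5 was in all of them, and their part in its change was not tested. Skeletal muscle markers (15 genes) summed to 22.5 to 44.1 CPM after IC and 40.7 to 94.7 after vehicle, with Myh7 and Pvalb at 0 in at least 1 library. Satellite cell markers (8 genes, the stem cells of muscle) summed to 23.7 to 64.8 and 74.4 to 141 CPM, with Myog at 0 in at least 1 library. Schwann cell markers (10 genes, the glia of nerves) summed to 112 to 209.6 and 188 to 249 CPM, with none at 0. The glial factor Sox10, a relative of Sox9, had 8.27 to 83.7 normalized counts after IC and 14.8 to 30.4 after vehicle, with the highest and the lowest value both after IC. Endothelial markers (10 genes) summed to 203 to 271 and 272 to 325 CPM, and mural cell markers (10 genes, the cells around vessels) to 501 to 617 and 620 to 669 CPM, with none at 0. DESeq2 called 4 skeletal muscle, 1 satellite cell, 2 Schwann cell, 2 endothelial and 1 mural cell marker lower after IC. It called none of them higher, and 1.33% of all genes lower. The test of edgeR called 1 Schwann cell marker and 0 of the skeletal muscle, satellite cell, endothelial and mural cell markers. Fibroblast markers (10 genes) summed to 44785 to 46497 CPM after IC and 45641 to 55505 after vehicle, with 2 called lower and 1 higher. Their median log2 fold change was −0.14, with 3 of 10 above 0. Macrophage markers had none called among 4 tested. The sums of the fibroblast, skeletal muscle, Schwann cell and macrophage markers overlapped between the groups, and 4 of the 10 Schwann cell markers had a log2 fold change above 0.

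Sox6 encodes the close relative of SOX5. It had 464, 459 and 280 normalized counts after IC, and 372, 545 and 402 after vehicle. The groups overlapped, with the lowest value in IC replicate 3, and the log2 fold change was −0.13 ± 0.237 (SE), with a 95% interval of −0.60 to 0.33 and a DESeq2 adjusted p of 0.932, and was −0.24 without vehicle replicate 1. The interval of Sox6 holds the change of Sox5, and a difference between the changes of Sox5 and Sox6 was not tested. The ratio of Sox5 to Sox6 counts within a library was 4.01 to 6.69 after IC and 4.76 to 6.67 after vehicle, ranges that overlapped.

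Runx2, whose product drives bone formation and the late maturation of cartilage cells, had 320, 295 and 414 normalized counts after IC, and 362, 385 and 421 after vehicle. The log2 fold change was −0.18 ± 0.207 (SE), with a 95% interval of −0.59 to 0.22 and a DESeq2 adjusted p of 0.874. IC replicate 3 lay among the vehicle values and the other 2 IC libraries below them. Runx2os1, an antisense gene, shares 5.87% of the exon bases of Runx2 and had a mean of 9.68 normalized counts.

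Mkx encodes a homeobox factor that maintains tendon and its collagen genes. It had 608, 622 and 698 normalized counts after IC, and 269, 476 and 418 after vehicle. Every IC library lay above every vehicle library. Means were 643 ± 48.3 and 388 ± 107 (SD, n = 3 each), and the log2 fold change was 0.73 ± 0.213 (SE), or 1.66-fold, with adjusted p values of 0.0292 (DESeq2) and 0.197 (edgeR). Mkx kept its direction in all 6 fits without 1 library, with log2 fold changes of 0.52 to 0.91, but passed the threshold in 1 of them. That fit left out vehicle replicate 2 (adjusted p 0.00644). With 6 libraries, all 8 other settings of DESeq2 called Mkx, as they did Sox5. Neither limma-voom (adjusted p 0.128) nor edgeR with a replicate block (0.23) called it. The adjusted p was 0.111 without IC replicate 1, 0.14 without IC replicate 2, 0.217 without IC replicate 3, 0.0617 without vehicle replicate 1 and 0.0972 without vehicle replicate 3. AC148004.2, a gene on the same strand, shares 4.91% of the exon bases of Mkx and is absent from the table of counts. Reads of these genes cannot be told apart there.

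Scx encodes the helix-loop-helix factor that marks tendon cells from their first appearance. It had 423, 416.5 and 389.8 normalized counts after IC, and 277, 409.9 and 269 after vehicle. The IC libraries lay close together, and vehicle replicate 2 fell among them while the other 2 vehicle libraries lay lower. The log2 fold change was 0.36 ± 0.219 (SE), with a 95% interval of −0.07 to 0.79 and adjusted p values of 0.589 (DESeq2) and 0.615 (edgeR). The gene (chr15:76457452-76459458) lies within the span of Bop1 on the opposite strand and shares no exon bases with it, and the counting of reads by strand is not stated.

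**Figure D2:**
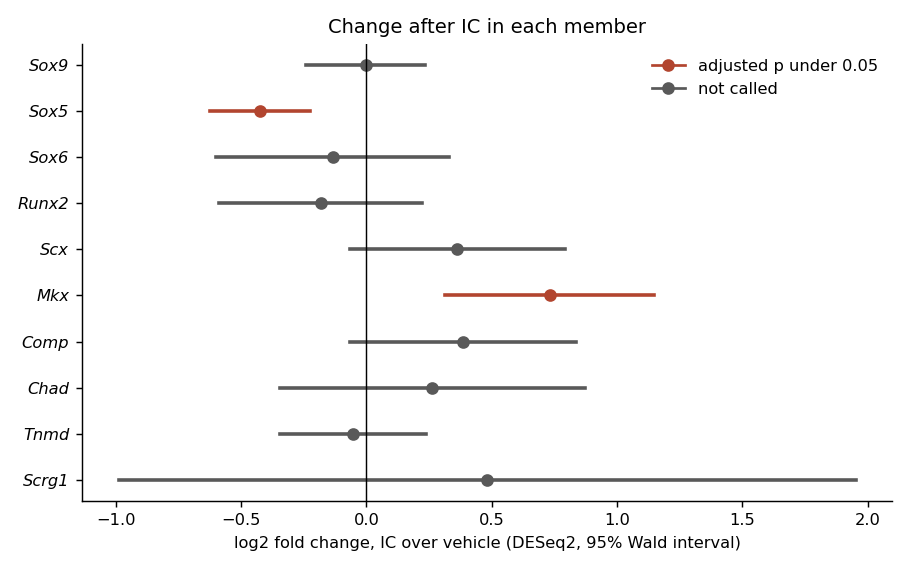
Log2 fold change of IC over vehicle (horizontal axis) for each lineage gene, as points with 95% Wald intervals from DESeq2. Sox5 at −0.42 and Mkx at 0.73 are red (adjusted p under 0.05), and the intervals of the other 8 genes, in grey, include 0.

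Comp encodes a pentameric thrombospondin of cartilage and tendon that binds collagen fibres. It had 29849, 34147 and 32656 normalized counts after IC, and 17035, 27981 and 28913 after vehicle. Every IC library lay above every vehicle library, but the gap between IC replicate 1 and vehicle replicate 3 was small beside that between vehicle replicates 1 and 2. Means were 32217 ± 2182 and 24643 ± 6605 (SD, n = 3 each), and the log2 fold change was 0.39 ± 0.230 (SE), with adjusted p values of 0.577 (DESeq2) and 0.464 (edgeR). Without vehicle replicate 1 the log2 fold change of Comp was 0.18 and its adjusted p 0.22. Comp lies at chr8:70373558-70382066 and shares no exon bases with another gene.

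The groups did not overlap for 3 of the 10 genes, with IC higher for Mkx and Comp and lower for Sox5. Over all tested genes the groups did not overlap for 15.8%, with IC higher for 8.09% and lower for 7.67%.

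Chad encodes chondroadherin, a leucine-rich protein to which cartilage cells attach. It had 3265, 3287 and 2701 normalized counts after IC, and 1708, 3521 and 2485 after vehicle. The vehicle libraries held both the lowest and the highest value. The log2 fold change was 0.26 ± 0.310 (SE) with a DESeq2 adjusted p of 0.878. Chad had an adjusted p of 0.0408 and a log2 fold change of 0.56 without vehicle replicate 2, and a log2 fold change of 0.036 with an adjusted p of 0.952 without vehicle replicate 1, so that these 2 libraries set its value. Chad (chr11:94565047-94569127) lies within the span of Acsf2 on the opposite strand and shares no exon bases with it.

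Tnmd encodes tenomodulin, a membrane protein of mature tendon cells. It had 1711, 1662 and 1436 normalized counts after IC, and 1315, 1989 and 1683 after vehicle. Both extremes were again vehicle libraries, replicate 1 the lowest and replicate 2 the highest, and the log2 fold change was −0.05 ± 0.149 (SE) with a 95% interval of −0.34 to 0.24 and a DESeq2 adjusted p of 0.969, and −0.20 without vehicle replicate 1. The ratio of Comp to Tnmd was 17.4 to 22.7 after IC and 12.95 to 17.2 after vehicle, so that the lowest IC ratio lay just above the highest vehicle ratio.

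Scrg1, a small secreted protein known from cartilage-forming stromal cells, was near the floor. It had 23.1, 46.5 and 18.8 normalized counts after IC, and 10.7, 17.9 and 35.3 after vehicle. DESeq2 gave it no adjusted p, and with a 95% interval of −0.99 to 1.95 on the log2 scale no difference of Scrg1 could be detected at its counts. Its log2 fold change was 0.48 with 6 libraries and 0.15 without vehicle replicate 1.

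**Figure D3:**
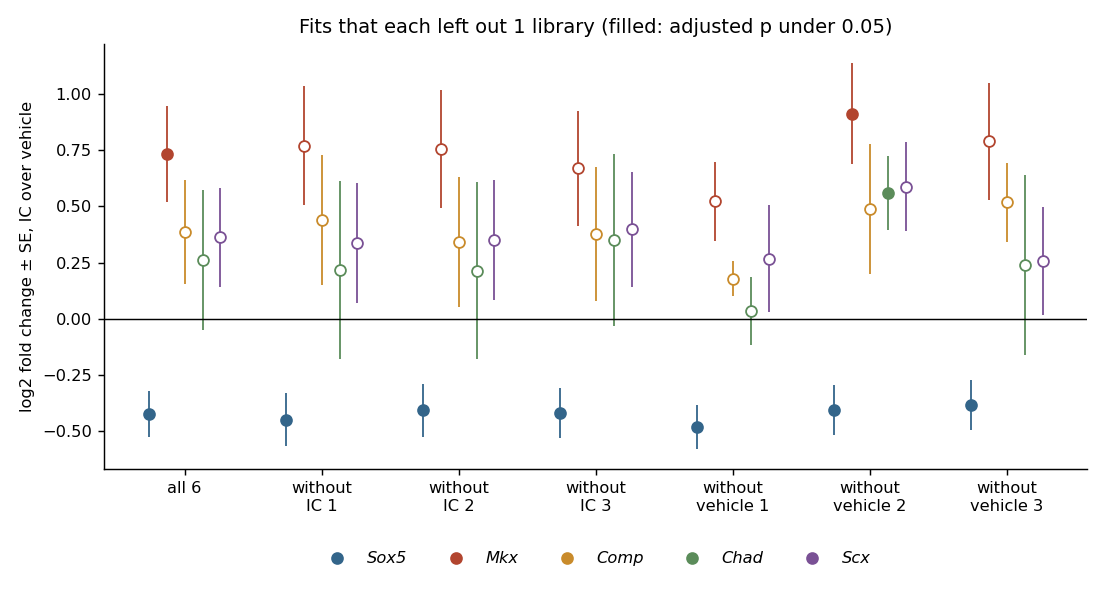
Log2 fold change ± SE (vertical axis) of Sox5, Mkx, Comp, Chad and Scx with all 6 libraries and with each library left out (horizontal axis). Filled points have an adjusted p under 0.05. Sox5 is filled in all 7 fits and Mkx in 2, and Comp and Chad come nearest to 0, at 0.18 and 0.036, without vehicle replicate 1.

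Several of the genes varied together from library to library. Over the 6 libraries, Pearson's r of log2 normalized counts was 0.93 for Comp with Mkx, 0.84 for Chad with Scx, 0.83 for Chad with Tnmd and 0.82 for Comp with Chad. Without vehicle replicate 1 these were 0.78, 0.82, 0.64 and −0.05, so that the likeness of Comp and Chad rested on that library. The most negative over the 6 libraries was −0.74, for Sox9 with Tnmd, or −0.52 without vehicle replicate 1. Other pairs grew stronger without that library. Sox5 with Mkx went from −0.67 to −0.96, Sox5 with Comp from −0.43 to −0.86 and Sox6 with Tnmd from 0.80 to 0.93. Comp with Tnmd turned from 0.52 to −0.70. These are descriptions over 6 or 5 points that share size factors. The points hold both groups, so a difference between IC and vehicle enters each r given here and below. Sox5, lower after IC, and Mkx and Comp, higher after IC, are thus set against each other by group. Correlations within the groups were not computed. In a search over 13426 other genes with a mean of at least 100 normalized counts, the 3 closest to Sox5 were Adra1a (r = 0.997), Pi15 (0.992) and Ednrb (0.991). The 3 closest to Mkx were Cd109 (0.995), Ggcx (0.992) and Arhgap10 (0.992), and those closest to Comp were Sh2d4a (0.994), Sema3a (0.993) and Wtip (0.985), which stood at 0.932, 0.921 and 0.917 without vehicle replicate 1. The first ranked for the others were Slc22a18 for Sox9 (0.981), Prss36 for Sox6 (0.99), Jund for Chad (0.988), Ddx18 for Runx2 (0.991), Dhx32 for Scx (0.998) and Abca2 for Tnmd (0.994). The first-ranked r was thus at least 0.981 for every gene searched, called or not. Each is the best of many genes over 6 points, and shared control was not tested.

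To set the genes beside each other, CPM values were divided by the length in kilobases of the exons in GENCODE M21. On this scale Comp led, at 226 ± 16.5 in the IC and 172 ± 41.9 in the vehicle libraries (SD, n = 3 each), and its lowest library lay above the highest library of Chad (42.5). Chad (21.9 to 42.5 over the 6 libraries) and Tnmd (20.9 to 29.8) overlapped. Sox9 came next, at 8.97 to 12.2, apart from both neighbours in the order. Scx (2.75 to 4.39), Sox5 (2.70 to 3.83) and Mkx (1.41 to 3.52) overlapped with one another. Runx2 (0.702 to 0.976), Scrg1 (0.327 to 1.40) and Sox6 (0.391 to 0.746) came last and overlapped likewise. Sox5 and Sox6 have 14376 and 14832 exon bases over all annotated transcripts, more than any 1 transcript holds, which lowers their values per length.

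**Figure D4:**
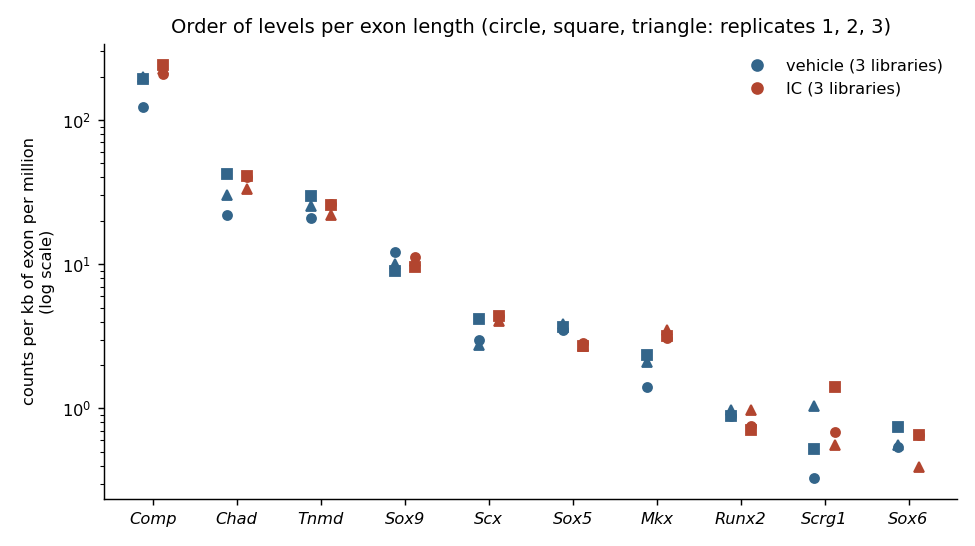
CPM per kilobase of exon (vertical axis, log scale) for the 10 genes, ordered by their mean, with vehicle libraries in blue and IC libraries in red. Comp lies above all others in every library. On this scale Sox5 and Mkx change places between groups, with Sox5 the higher after vehicle and Mkx after IC. That order depends on the exon lengths used, and in normalized counts Sox5 lay above Mkx in every library.

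Other tendon and ligament genes were taken from a list of 30, none of them among the 10, and all 30 were tested. DESeq2 called 7 of them, 5 higher and 2 lower, beside 2.61% of all genes given an adjusted p. The test of edgeR called 1, beside 0.186% of all tested genes. This list and those below were chosen with earlier results of these data known, so these shares do not test enrichment. The split by direction moved with the libraries and the fit, to 4 higher and 5 lower without vehicle replicate 1, 7 higher and 1 lower without vehicle replicate 2, and 8 higher and 1 lower with 1 surrogate variable. The list had no shift of its own, with 15 of 30 log2 fold changes above 0 and a median of −0.0031 beside −0.0019 for all tested genes. Vehicle replicate 1 held the lowest value of the 6 libraries for 18 of the 30.

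The 5 genes that rose encode secreted or matrix proteins. Angptl7, a secreted angiopoietin-like protein, had 11203, 9816 and 8914 normalized counts after IC, and 4995, 5671 and 5823 after vehicle. The groups lay far apart beside their spread, and the log2 fold change was 0.86 ± 0.10 (SE), with adjusted p values of 5.18e-14 (DESeq2) and 0.0141 (edgeR). Thbs4, the thrombospondin nearest to COMP in tendon, had 41221, 52951 and 38001 after IC, and 23146, 31124 and 29285 after vehicle. The groups of Thbs4 did not overlap either, and its log2 fold change was 0.66 ± 0.122 (SE), with adjusted p values of 2.16e-05 (DESeq2) and 0.0844 (edgeR).

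Cilp, a protein of the cartilage intermediate layer, rose from 17002 ± 3263 to 24666 ± 1568 (SD, n = 3 each), with a log2 fold change of 0.54 and a DESeq2 adjusted p of 0.000612. Col12a1, a collagen on the surface of tendon fibrils, rose from 8886 ± 1008 to 12227 ± 746, with 0.46 and 0.000232. These 4 DESeq2 calls held in all 6 fits without 1 library. By edgeR the adjusted p was 0.12 for Cilp and 0.0822 for Col12a1. Tnc, the matrix glycoprotein tenascin C, had 3376 ± 545 after vehicle and 4649 ± 818 after IC, with 0.46 and 0.0351, and its groups overlapped. The call of Tnc was lost when IC replicate 2 (0.411) or 3 (0.200) or vehicle replicate 1 (0.169) or 3 (0.23) was left out. Its edgeR adjusted p was 0.26.

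The 2 that fell were Lum, a small proteoglycan that spaces collagen fibrils, and the fibrillar collagen Col3a1. By edgeR the adjusted p was 0.135 for Lum and 0.177 for Col3a1. Lum fell from a vehicle mean of 54373 ± 2688 to 42303 ± 4335 normalized counts (SD, n = 3 each), with a log2 fold change of −0.36 and a DESeq2 adjusted p of 0.0025, or 0.0751 without vehicle replicate 3. Col3a1 had 579268 ± 27905 and 752186 ± 106044, with −0.38 and 0.00679, and lost the call when IC replicate 1 (0.0701) or 2 (0.119) or vehicle replicate 2 (0.161) or 3 (0.173) was left out. The fibrillar collagens Col1a1 (log2 fold change −0.12, adjusted p 0.754) and Col1a2 (−0.12, 0.727), the main collagen of tendon, were not called with 6 libraries. Without vehicle replicate 1 both were called lower, Col1a1 at −0.23 (adjusted p 0.00862) and Col1a2 at −0.23 (0.00852).

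Of 30 cartilage genes in a second list, 24 were tested and 21 were given an adjusted p. DESeq2 called 3, 2 higher and 1 lower, beside 2.61% of all genes. The median log2 fold change of the 24 was −0.19, with 8 above 0. Prg4, which encodes the joint lubricant lubricin and also marks lining fibroblasts, had 17352, 22054 and 22899 normalized counts after IC, and 8263, 13855 and 10408 after vehicle. The log2 fold change of Prg4 was 0.94 ± 0.248 (SE) with adjusted p values of 0.0103 (DESeq2) and 0.0541 (edgeR), and the call was lost when IC replicate 2 (0.152) or 3 (0.155) or vehicle replicate 3 (0.129) was left out. Itm2a, a membrane protein of early cartilage cells, fell from 12150 ± 1272 to 7018 ± 336 (SD, n = 3 each), with a log2 fold change of −0.79 and adjusted p values of 3.99e-14 (DESeq2) and 0.0141 (edgeR). Acan, the large proteoglycan of cartilage, had 285 ± 97.9 after IC and 113 ± 30.6 after vehicle, with 1.34 and 0.0029 (DESeq2). Its adjusted p was 0.147 without IC replicate 2 (DESeq2) and 0.108 by edgeR.

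Other genes that define cartilage, named here after their values were seen, were not called with 6 libraries. Col2a1, the main cartilage collagen and a direct target of SOX9, had 238, 184 and 177 normalized counts after IC, and 418, 246 and 342 after vehicle. Its IC values all lay below its vehicle values, the opposite order to Acan, with a log2 fold change of −0.75 and a DESeq2 adjusted p of 0.107, or 0.0199 without vehicle replicate 2. Col9a2 had 66.2 to 140 after IC and 98.5 to 175 after vehicle, Hapln1 60.9 to 76.0 and 50.0 to 109, and Cnmd, the relative of Tnmd in cartilage, 4.41 to 24.8 and 15.1 to 33.6. Other collagens of cartilage had log2 fold changes above 0. Col9a3 had 504 to 613 after IC and 416 to 449 after vehicle, without overlap (0.35, adjusted p 0.373), while the groups of Col11a1 (0.06, 0.947) and Col11a2 (0.18, 0.801) overlapped. The 9 chondrocyte markers in the table together summed to 68.8 to 86.3 CPM after IC and 61.9 to 75.5 after vehicle, ranges that overlapped, with Col9a1 and Matn3 at 0 in at least 1 library. Zbtb20, a transcriptional repressor with 43031 ± 3432 after IC and 50377 ± 3265 after vehicle, had the highest counts of the list and was not called (log2 fold change −0.23, adjusted p 0.134, or 0.0371 without IC replicate 1).

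Of 20 bone genes, 14 were tested, 12 were given an adjusted p and 2 were called, beside 2.61% of all genes. The test of edgeR called 0 of them, with an adjusted p of 0.101 for Spp1 and 0.0836 for Omd. Spp1, osteopontin, had 1189, 1409 and 1039 normalized counts after IC, and 717, 527 and 846 after vehicle, with a log2 fold change of 0.80 and a DESeq2 adjusted p of 0.00109, or 0.0666 without IC replicate 2. Omd, osteomodulin, a small leucine-rich protein of bone, had 1061, 1018 and 1075 after IC, and 1327, 1635 and 1866 after vehicle, with −0.61 and 0.0013. The highest mean counts of this list were those of Cbfb, the partner of the RUNX factors (−0.05, 0.937), Phex (−0.46, 0.815) and Mef2c (−0.22, 0.396), none of them called. Sp7, the osteoblast factor that acts after RUNX2, had 3.58 to 5.51 normalized counts after IC and 10.4 to 15.8 after vehicle and was given no adjusted p.

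Relatives of the 10 genes by sequence numbered 24, of which 18 were given an adjusted p. DESeq2 called 2, Thbs4 (above) and Sox4, beside 2.61% of all genes. Sox4, a SOX factor of progenitor cells, had 2060, 2386 and 2227 normalized counts after IC, and 3288, 3213 and 2732 after vehicle. It fell with a log2 fold change of −0.47 ± 0.109 (SE) and adjusted p values of 0.00167 (DESeq2) and 0.0836 (edgeR), and its call held in all 6 fits without 1 library. Sox8, which belongs to the same group as Sox9, had 821 to 848 normalized counts after IC and 872 to 1261 after vehicle, with −0.39 and an adjusted p of 0.194, or 0.00723 without vehicle replicate 2. Runx1 had 8133 to 8888 and 6340 to 7814, with 0.23 and 0.218, or 0.0373 without vehicle replicate 1. Sox8 and Runx1, like Sp7 and Sox10 above, were named after their values were seen, and neither was called with 6 libraries although their groups did not overlap. Besides Thbs4, the highest mean counts of these relatives were those of Thbs1 (0.23, adjusted p 0.12) and Thbs2 (0.27, 0.397). Thbs1 was called without vehicle replicate 1 (0.28, 0.0124). Thbs2 was called without vehicle replicate 2 (0.45, 0.0352) and with 1 surrogate variable (0.44, 0.00896), and stood at 0.088 without vehicle replicate 1.

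**Figure D5:**
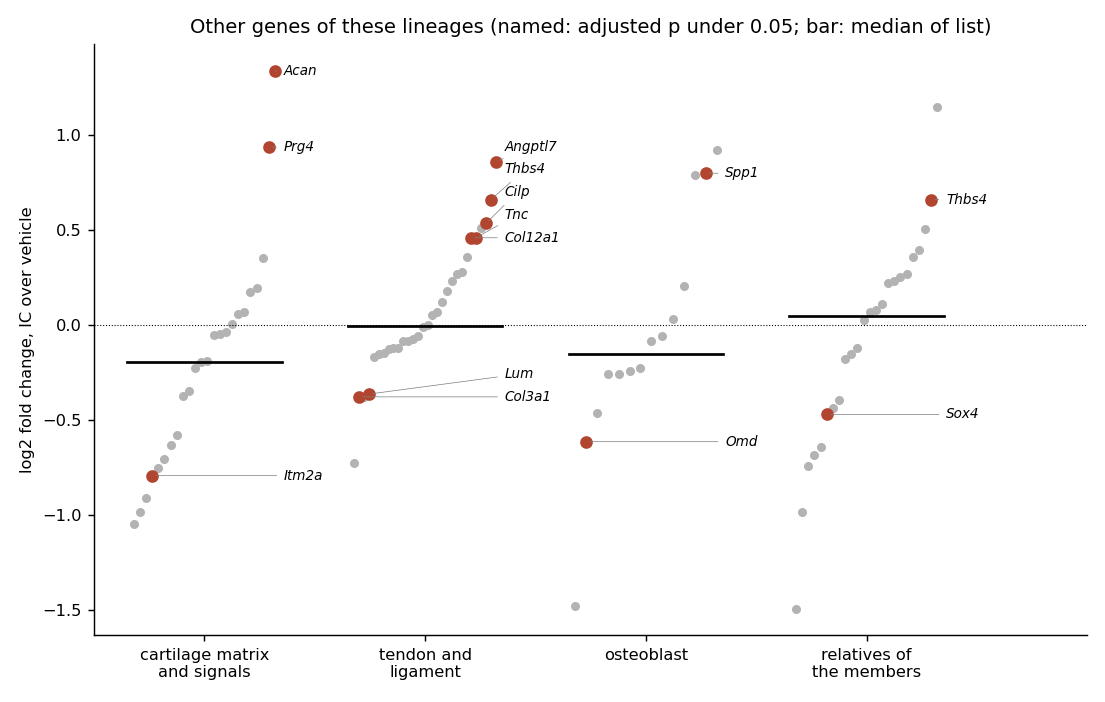
Log2 fold change of IC over vehicle (vertical axis) for each tested gene of the 4 lists, ordered within a list, with genes at an adjusted p under 0.05 in red and named. The black bar is the median of a list, at −0.19, −0.0031, −0.15 and 0.049 from left to right.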

How the data were processed

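Total RNA of sorted synovial fibroblasts was sequenced as paired reads, 3 libraries after IC and 3 after vehicle. The deposited values are raw counts per gene, which per the labels and the study's methods the authors made with Trim Galore, FastQC, HISAT2 (mm10) and featureCounts; versions, annotation and strand setting are not given in the sources used here. The labels name a stranded Illumina kit with ribosomal RNA depletion (Ribo-Zero Plus) and the methods another kit. The 6 files per sample held the same values as the combined table.

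Tests covered the genes that reached 10 counts in 3 or more libraries (19925 of 24348, the 4423 left out holding 0.0429% of counts) with the Wald test of DESeq2 1.42.0 in R 4.3.3 and Benjamini-Hochberg adjustment at 0.05 over all genes. DESeq2 gave no adjusted p to 3870 genes, 7 of them for an outlying count. Other settings were edgeR 4.0.16 (quasi-likelihood test), limma-voom (limma 3.58.1), other size factors and filters, a replicate block, 1 surrogate variable (sva 3.50.0) and leaving out each library. Intervals are Wald intervals. DESeq2 and edgeR were run on counts simulated with the means of these data and the dispersions of DESeq2, with no library set apart. That run does not bear on vehicle replicate 1 or on the gap between the calls of DESeq2 and edgeR. The 10 genes and all lists were chosen with earlier results of these data known. The text names the 10 genes, and in 4 lists every gene called and the 3 of highest mean count, and for each of the 10 with a mean of at least 100 the genes of most similar pattern. Other genes are said to be chosen after their values were seen. The sources used here do not say whether libraries of the same number form pairs, and they were not taken as pairs.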

Additional observations from a re-analysis of the deposited data

How the results depend on the processing

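Over all genes DESeq2 called 419, against 37 by edgeR, 22 by edgeR with the replicate block, 62 by limma-voom and 281 to 677 when 1 library was left out, the most without vehicle replicate 1. Of the 10 lineage genes DESeq2 called 2, against 0 by edgeR, edgeR with the replicate block and limma-voom (each with 3 at an unadjusted p under 0.05) and 1 to 3 without 1 library. Comp was also called with the replicate block in DESeq2 (3 genes of 10, and 320 over all genes) and Chad with 1 surrogate variable. The cartilage list had 3 called, 1 by edgeR and 1 to 4 without 1 library. The tendon list had 7 called, 1 by edgeR and by limma-voom, 0 by edgeR with the replicate block and 4 to 9 without 1 library. The bone list had 2 called, 0 by edgeR, edgeR with the replicate block and limma-voom, and 1 to 2 without 1 library. The relatives had 2 called, 0 by those 3 tests, 4 with 1 surrogate variable and 2 to 5 without 1 library. The cause of these differences was not tested.

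Genes near no change turned sign. Sox9 was at 0.0012 with the replicate block in edgeR, at 0.0017 with the replicate block in DESeq2 and at −0.083 to 0.097 without 1 library (0.062 without IC replicate 2). Sox6 was at 0.022 and Tnmd at 0.085 with 1 surrogate variable, and at −0.25 to 0.069 and −0.20 to 0.10 without 1 library (Sox6 0.05 without vehicle replicate 2, Tnmd 0.02 without IC replicate 3). Scrg1 was at −0.012 without IC replicate 2 and at up to 1.05 without vehicle replicate 3. Of the log2 fold changes of the 10 genes under alternatives, 144 kept direction and side of the threshold, most of them of genes not called. Another 11 turned sign, 11 lost the call, all of Sox5 or Mkx, and 3 gained it. Libraries with the same number deviated from their group means with r of −0.092, −0.164 and 0.025. These values cannot show whether libraries form pairs, and the numbers were not taken as pairs because the sources do not say. The DESeq2 adjusted p of Comp was 0.0152 with the replicate block and 0.577 without it. The fit by edgeR with the replicate block, and every alternative for the list counts and for the named genes of the lists, were chosen after seeing the data.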
